A study of Rattus norvegicus with 6 samples.

Results

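The miR-200 and miR-141 family comprises 5 rat miRNA genes, rno-miR-200a, rno-miR-200b, rno-miR-200c, rno-miR-141 and rno-miR-429. Its members were taken by name: every mature miRNA row that carries one of these names, with or without an arm suffix (3p or 5p, the strand of the hairpin from which the mature miRNA comes), was included. This gave 8 of the 734 mature miRNA rows counted. Small RNA was sequenced from primary rat sertoli cells, the somatic nurse cells of the seminiferous tubule, in 3 control samples and 3 samples treated with 4-NP (4-nonylphenol, an alkylphenol with estrogen-like action). The cells came from the testes of Sprague-Dawley rats 5 to 10 days old and were enriched by enzymatic digestion and treated at passage 2. Control cells received 0 mM and treated cells 0.5 mM 4-NP, with both profiled at 24 h, and the vehicle is not given in the sources used here. The labels call the samples triplicates without saying whether they came from separate cultures or animals, so the p-values below measure only the spread between these samples.

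miRNAs guide silencing complexes to messenger RNAs, and pairing is led by the seed, bases 2 to 8 of the mature miRNA. The miR-200 family is known as an epithelial one: its members repress ZEB1 and ZEB2, repressors of E-cadherin, and are low in mesenchymal cells. The genes lie in a pair of clusters, miR-200b, miR-200a and miR-429 in one and miR-200c and miR-141 in the other, and the members of a cluster are known to be transcribed together.

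Sequences are shown because members of different clusters share seeds and much of the surrounding bases, which bears on how reads were divided among them. In RefSeq's GRCr8 assembly, Mir429, Mir200a and Mir200b lie on the minus strand of chromosome 5 at chr5:171929682-171931589, a span of 1908 bases that overlaps the protein-coding gene Ttll10 and the long non-coding RNA LOC106182250. Mir141 and Mir200c lie on the minus strand of chromosome 4 at chr4:159209525-159210033, a span of 509 bases between the protein-coding genes Phb2 and Ptpn6. They are called the chromosome 5 cluster and the chromosome 4 cluster here. The genome build behind the counts is not given in the sources used here, and these positions belong to the sequence entries only. The table of mature sequences had an entry for 5 of the 8 counted arms, and that of hairpins for all 5 genes. In the mature sequences below, written 5′ to 3′, capitals mark the seed.
rno-miR-200c-3p: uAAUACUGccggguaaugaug
rno-miR-141-3p: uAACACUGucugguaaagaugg
rno-miR-200b-5p: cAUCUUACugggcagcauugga
rno-miR-200c-5p: cGUCUUACccagcaguguuug
rno-miR-141-5p: uCCAUCUUccagugcaguguug

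The 3p arms of miR-200c and miR-141 were identical at 17 of 21 positions, and the substitutions from miR-200c-3p to miR-141-3p, counted from the 5′ end, were U4C, C9U, G11U and U17A. Of these 4, only U4C lies in the seed, so the pair carries seeds that differ by 1 base. In the hairpins, capitals mark the stretch that equals the seed of miR-200c-3p (Mir200b, Mir200c, Mir429) or of miR-141-3p (Mir200a, Mir141).
Mir200b: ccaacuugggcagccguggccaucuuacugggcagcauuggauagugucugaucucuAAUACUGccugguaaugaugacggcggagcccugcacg
Mir200a: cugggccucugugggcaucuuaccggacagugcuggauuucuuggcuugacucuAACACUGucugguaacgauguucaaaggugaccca
Mir429: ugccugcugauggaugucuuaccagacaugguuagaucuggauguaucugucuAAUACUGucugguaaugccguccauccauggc
Mir200c: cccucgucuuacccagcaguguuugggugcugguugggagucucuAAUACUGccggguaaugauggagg
Mir141: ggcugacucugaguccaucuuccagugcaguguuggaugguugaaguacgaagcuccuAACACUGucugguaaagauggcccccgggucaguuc

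Each of these 7-base stretches was found in 4 of the 419 rat hairpins of the table (0.955%), and no other mature entry among 724 had either as its seed. Both clusters therefore held both seeds. The longest run shared by any pair of the hairpins was the 17 bases common to Mir141 and Mir200a, followed by the 14 bases common to Mir200b and Mir200c, and both pairs join a gene of one cluster with a gene of the other. On the opposite strand, Mir3548 overlaps Mir200a and Mir3575 overlaps Mir200c in the same assembly, and neither had a row among the counted miRNAs.

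Each sample held between 20023200 and 23426742 mature miRNA reads, of which miR-21-5p took 62.0 to 63.9%. Levels are given as CPM, the usual depth-scaled count, here relative to the mature miRNA reads of the sample. At a one-sided 95% limit a count of 0 allows up to 3 reads, which correspond to 0.128 to 0.150 CPM. Reads were not collapsed to molecules, so intervals from counts and this limit cover counting error only. Changes are log2 fold changes of 4-NP over control from edgeR's quasi-likelihood test. Sums of members were fitted with the sum in place of its members' rows, and their p-values were adjusted over the rows of that fit. Those of single miRNAs were adjusted over all 549 mature miRNAs that passed the filter on low counts. The median log2 fold change of those 549 was -0.02.

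The family was sparse in these cells and was lower after 4-NP. It had 296, 301 and 239 reads in controls 1, 2 and 3 and 156, 127 and 144 reads in 4-NP samples 1, 2 and 3. The summed level was 12.6, 13.0 and 10.7 CPM in the controls against 7.05, 6.34 and 6.58 CPM after treatment, so that the groups did not overlap. The mean fell from 12.1 ± 1.24 to 6.66 ± 0.360 CPM (SD, n = 3 each), which was 1.78-fold lower in the fit (log2 fold change -0.83, SE 0.13, 95% interval -1.14 to -0.52, adjusted p = 0.00561). In these bulk samples, fewer cells that express the family and less of it per cell cannot be told apart.

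Of the 8 rows, 5 passed the filter on low counts, 1 for each gene: the 3p arms of miR-200b, miR-200a, miR-200c and miR-141, and miR-429, whose row names no arm. Of these 5, 2 were lower at an adjusted p under 0.05 (miR-200a-3p and miR-429) and 0 were higher, where 12.8% of all tested mature miRNAs were lower and 7.47% higher. By the thresholds of the study's methods, a fold change under 0.5 and an unadjusted p under 0.05, 3 members were lower (miR-200b-3p in addition), against 9.84% of all tested miRNAs. The same 3 had every 4-NP sample below every control sample, which held for 22.6% of all tested miRNAs. All 3 belong to the chromosome 5 cluster. The median log2 fold change of the 5 tested members was -1.12.

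**Figure D1:**
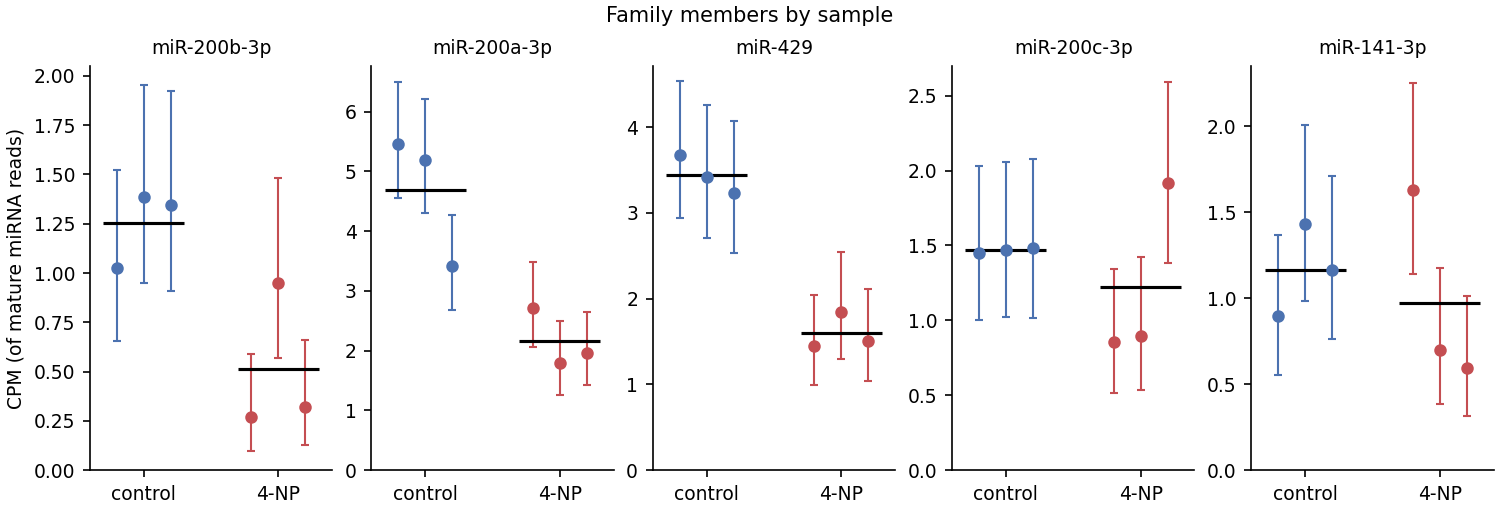
Level of the 5 tested members in each sample, in CPM on a linear axis that starts at 0 and differs between panels. Points are samples (blue control, red 4-NP), bars are 95% counting intervals and black lines are group means. The treated samples lie below every control for miR-200b-3p, miR-200a-3p and miR-429, and the groups overlap for miR-200c-3p and miR-141-3p.

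In the chromosome 5 cluster (miR-200b, miR-200a and miR-429), miR-200a-3p was the most abundant member, with 128, 120 and 76 reads in the controls and 60, 36 and 43 reads after 4-NP. Its level was 5.46, 5.20 and 3.41 CPM in the controls and 2.71, 1.80 and 1.96 CPM in the treated samples. Control 3 was the lowest control and 4-NP 1 the highest treated sample, and the groups stayed apart. The 95% counting intervals of these samples overlapped (2.69 to 4.27 CPM in control 3 and 2.07 to 3.49 CPM in 4-NP 1). Control samples averaged 4.69 ± 1.12 CPM and treated samples 2.16 ± 0.486 CPM (SD, n = 3 in either group), and the log2 fold change was -1.14 (SE 0.24, 95% interval -1.72 to -0.55, adjusted p = 0.0198). The call held without control 3 (-1.32) or 4-NP 1 (-1.29), with adjusted p-values of 0.0159 and 0.0313, and was lost without control 1 (log2 fold change -0.97), control 2 (-1.13), 4-NP 2 (-0.94) or 4-NP 3 (-1.10), with adjusted p-values of 0.0617 to 0.0731.

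miR-429, which carries the seed of miR-200c-3p, had the smallest standard error of the 5 tested members. Its counts were 86, 79 and 72 reads in the controls and 32, 37 and 33 reads after 4-NP. These counts correspond to 3.67, 3.42 and 3.23 CPM against 1.45, 1.85 and 1.51 CPM. Within each group the samples lay close together, with means of 3.44 ± 0.221 and 1.60 ± 0.217 CPM (SD, n = 3 each). The 95% counting intervals of control 3 (2.53 to 4.07 CPM) and 4-NP 2 (1.30 to 2.55 CPM) just overlapped. The log2 fold change was -1.12 (SE 0.19, 95% interval -1.59 to -0.66, adjusted p = 0.00807), and it was called under all 17 alternatives run, with adjusted p-values from 0.000936 to 0.0444.

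miR-200b-3p was scarcer, with 24, 32 and 30 reads in the controls and 6, 19 and 7 reads after 4-NP. The corresponding levels were 1.02, 1.39 and 1.35 CPM and 0.271, 0.949 and 0.320 CPM. The groups did not overlap, but 4-NP 2 stood close to the lowest control while the other treated samples were far lower. The 95% counting intervals of control 1 (0.656 to 1.52 CPM) and 4-NP 2 (0.571 to 1.48 CPM) overlapped. The means were 1.25 ± 0.198 and 0.513 ± 0.378 CPM (SD, n = 3 each), and the log2 fold change of -1.31 (SE 0.50, 95% interval -2.50 to -0.12) did not pass after adjustment (adjusted p = 0.112). Without 4-NP 2 it was -1.99 and passed (adjusted p = 0.0236).

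In the chromosome 4 cluster (miR-200c and miR-141), neither member passed the test. The controls held 34, 34 and 33 reads of miR-200c-3p, a level of 1.45, 1.47 and 1.48 CPM. After 4-NP it had 19, 18 and 42 reads, or 0.859, 0.899 and 1.92 CPM. The spread lay in the treated group: 4-NP 1 and 4-NP 2 lay below every control and 4-NP 3 above every control. The means were 1.47 ± 0.0149 and 1.23 ± 0.600 CPM (SD, n = 3 per group), and the fitted log2 fold change was -0.26 (SE 0.39, 95% interval -1.19 to 0.67, adjusted p = 0.686). This interval includes a fall as large as that of miR-200a-3p, so a like change is not excluded by these samples. The log2 fold change was 0.0067 without 4-NP 2 and -0.78 without 4-NP 3.

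miR-141-3p, which carries the same seed as miR-200a-3p, was counted 21, 33 and 26 times in the controls and 36, 14 and 13 times after 4-NP. In CPM this was 0.896, 1.43 and 1.17 against 1.63, 0.699 and 0.594. Here 4-NP 1 was above every control, whereas 4-NP 2 and 4-NP 3 were below every control. The means were 1.16 ± 0.266 and 0.973 ± 0.568 CPM (SD, n = 3 each), and the log2 fold change was -0.28 (SE 0.41, 95% interval -1.27 to 0.72, adjusted p = 0.687), or -0.82 without 4-NP 1.

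Within this cluster, miR-141-3p made up 38.2, 49.3 and 44.1% of the reads of the pair in the controls, and 65.5, 43.8 and 23.6% in 4-NP samples 1, 2 and 3. The exact (Clopper-Pearson) 95% intervals of 4-NP 1 (51.4 to 77.8%) and 4-NP 3 (13.2 to 37.0%) did not overlap, although both samples had 55 reads on the pair. These intervals cover counting error only, and the treated samples lay on both sides of the controls. In the other cluster, miR-200a-3p made up 51.4 to 60.3% of its reads with miR-429 in the controls and 49.3 to 65.2% after 4-NP. miR-200b-3p made up 21.8, 28.8 and 29.4% of its reads with miR-429 in the controls and 15.8, 33.9 and 17.5% after 4-NP, where the treated samples again lay on both sides of the controls.

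Ordered by mean level, the controls ran from miR-200a-3p (4.69 CPM) through miR-429 (3.44 CPM), miR-200c-3p (1.47 CPM) and miR-200b-3p (1.25 CPM) to miR-141-3p (1.16 CPM). CPM was not corrected for length, and the mature sequences printed above are 21 or 22 bases long. The sample ranges of miR-200a-3p and miR-429 overlapped, those of miR-429 and miR-200c-3p did not, and the counting intervals of the last 3 overlapped. After 4-NP, miR-200b-3p (0.513 CPM) moved to the end of the order, behind miR-141-3p (0.973 CPM), and the sample ranges of these neighbours overlapped. Over all 6 samples, the 5 members ranked between 376 and 492 among the 734 mature miRNAs.

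The other arms were close to the limit of detection. In the controls miR-141-5p was counted 1, 2 and 0 times, and after 4-NP 3, 3 and 6 times. It was the only member whose treated samples all lay above the controls, at counts too low to be tested. The 95% counting intervals of all 6 samples overlapped. The share of all miRNAs with this pattern was not taken, so no change of miR-141-5p is read from it. In the controls, miR-200b-5p was counted 1, 0 and 1 times and miR-200c-5p 1, 1 and 1 times. Both had 0 reads in every treated sample, which allows up to 0.136 to 0.150 CPM at the one-sided 95% limit. miR-200a-5p and a further arm of miR-429 had no row among the counted miRNAs. A comparison of arms between groups could not be run, because no 5p arm reached the 20 reads per sample set for it.

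The clusters were next compared as sums, which give the total change of each cluster and do not show whether its members moved together. The chromosome 5 cluster had 10.2, 10.0 and 8.03 CPM in the controls (239, 231 and 179 reads) and 4.43, 4.59 and 3.79 CPM after 4-NP (98, 92 and 83 reads). Its mean fell from 9.41 ± 1.20 to 4.27 ± 0.424 CPM (SD, n = 3 each), 2.14-fold lower in the fit (log2 fold change -1.09, SE 0.15, 95% interval -1.46 to -0.73, adjusted p = 0.00363). The chromosome 4 cluster had 2.43, 3.03 and 2.69 CPM in the controls (57, 70 and 60 reads) and 2.62, 1.75 and 2.79 CPM after 4-NP (58, 35 and 61 reads). Its means of 2.72 ± 0.300 and 2.38 ± 0.558 CPM (SD, n = 3 each) came from overlapping samples, and the log2 fold change was -0.13 (SE 0.23, 95% interval -0.69 to 0.42, adjusted p = 0.716), turning to 0.055 without 4-NP 2. The high and low counts of miR-200c-3p and miR-141-3p in 4-NP 1 and 4-NP 3 offset each other in this sum.

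The difference between the clusters was tested on the log2 ratio of the sums within each sample, a value that needs no scaling to library size. The ratio of the chromosome 5 sum over the chromosome 4 sum was 2.07, 1.72 and 1.58 in the controls and 0.76, 1.39 and 0.44 after 4-NP. Every treated sample lay below every control. The means were 1.79 ± 0.25 and 0.87 ± 0.48 (SD, n = 3 each), a difference of -0.92 with a two-sided exact permutation p = 0.1, which is the smallest that this test can give with 3 against 3 samples, so that it cannot reach 0.05 whatever the size of the difference. As a share of the family's reads, the chromosome 5 cluster had 80.7, 76.7 and 74.9% in the controls and 62.8, 72.4 and 57.6% after 4-NP. Control 3 (exact 95% interval 68.9 to 80.3%) and 4-NP 2 (63.8 to 80.0%) could not be told apart by counting error.

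**Figure D2:**
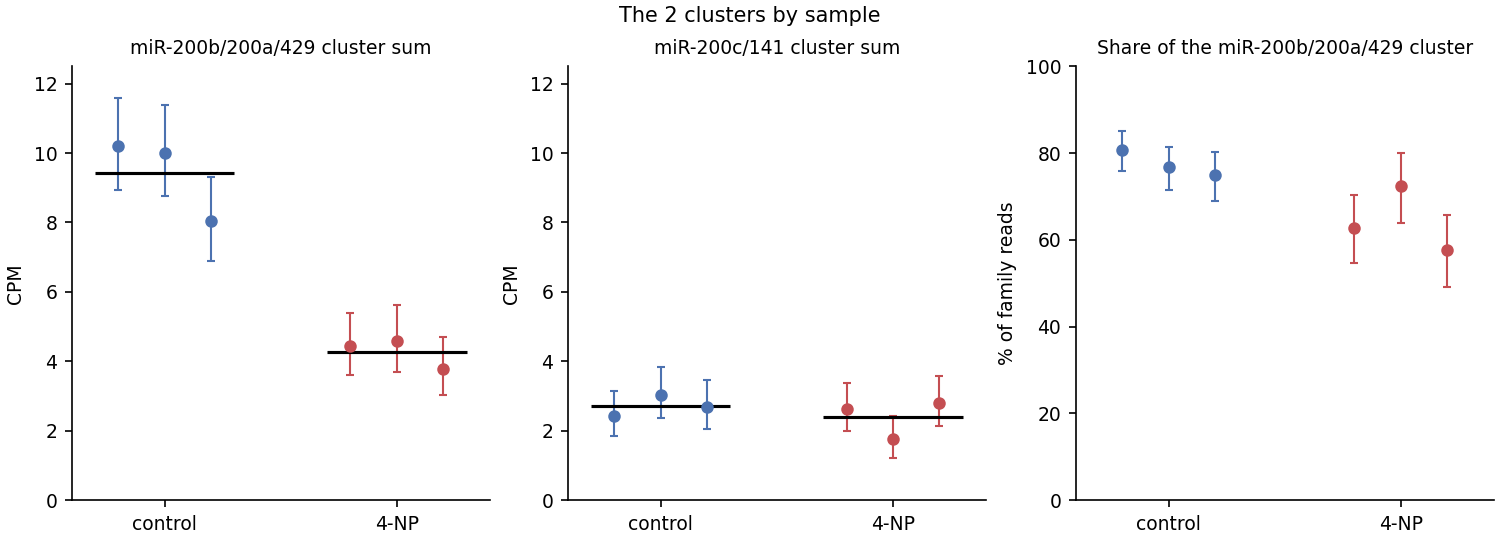
Summed level of each cluster per sample in CPM (left and middle, same axis from 0) and the share of the chromosome 5 cluster among the family's reads in percent (right). Points are samples (blue control, red 4-NP), bars are 95% counting intervals and black lines are group means. The first cluster falls from 8.03 to 10.2 CPM in controls to 3.79 to 4.59 CPM after 4-NP, while the second spans 2.43 to 3.03 CPM and 1.75 to 2.79 CPM.

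Grouping by seed in place of cluster gave no such separation. The log2 ratio of the reads of miR-200b-3p, miR-200c-3p and miR-429 over those of miR-200a-3p and miR-141-3p was -0.05, -0.08 and 0.40 in the controls and -0.75, 0.57 and 0.55 after 4-NP. The treated samples lay on both sides of the controls. The difference of the means was 0.03 (two-sided exact permutation p = 1), with SDs of 0.27 and 0.76 (n = 3 each).

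The hairpins printed above show how close miR-200b comes to miR-200c and miR-200a to miR-141, and how the authors divided reads between such pairs is not given in the sources used here. Summed as pairs, a choice made after the values were seen, miR-200a-3p with miR-141-3p had a log2 fold change of -0.92 (SE 0.25, adjusted p = 0.0475). miR-200b-3p with miR-200c-3p had -0.64 (SE 0.30, adjusted p = 0.178). miR-200b-3p held 41.4, 48.5 and 47.6% of the reads of its pair in the controls and 24.0, 51.4 and 14.3% after 4-NP. The values of these 4 arms, and the contrast between the clusters that rests on them, therefore carry an uncertainty that the counts alone do not show. The hairpin of miR-429 shares at most 12 bases in a row with any of the others, and 10 with that of miR-200b. A run ends at the first differing base, and the printed hairpins of miR-429 and miR-200b match again beyond it before further differences. Over the length of the mature miRNA, miR-429 differs from miR-200b at more bases than miR-200b from miR-200c or miR-200a from miR-141. The reads of miR-429 may still carry some uncertainty of this kind, and its size was not tested.

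**Figure D3:**
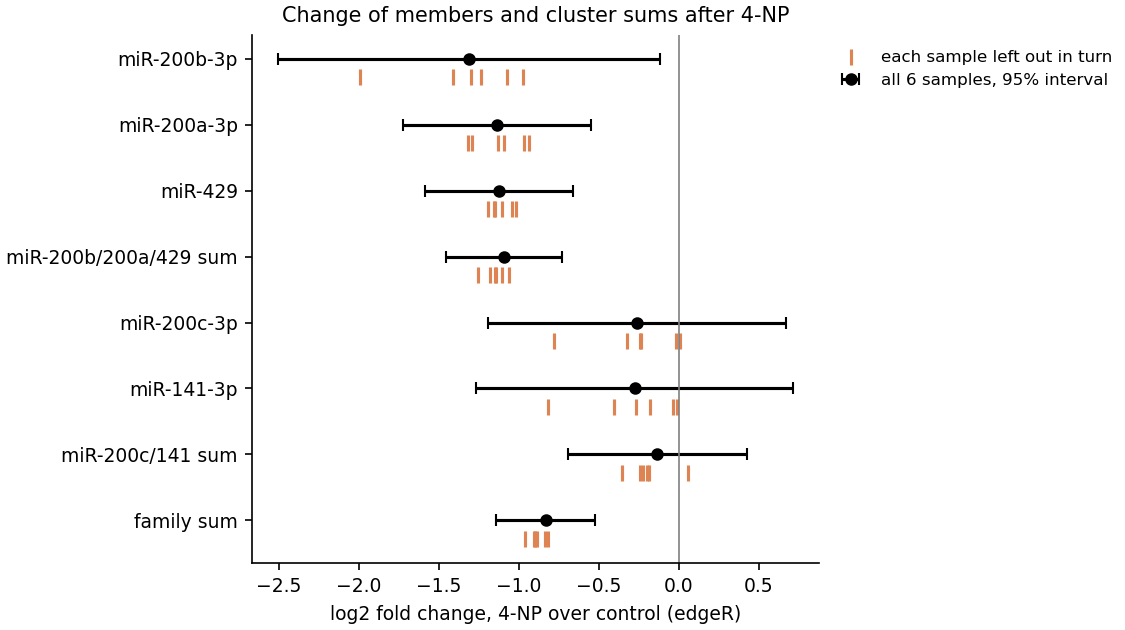
Log2 fold change of 4-NP over control from edgeR for the 5 tested members, both cluster sums and the family sum. Black points and bars are the estimates from all 6 samples with 95% intervals, and orange ticks are the estimates with each sample left out in turn. The chromosome 5 sum (-1.09) and its 3 members lie left of 0 in every fit, whereas the intervals of miR-200c-3p, miR-141-3p and their sum (-0.13) span 0.

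Reads on the precursors were counted in a single row, the RNA family of mir-8, mir-141 and mir-200 precursors, which is not tied to a single gene. This row was counted 117, 112 and 14 times in the controls and 4, 4 and 13 times after 4-NP, or 4.99, 4.85 and 0.628 CPM against 0.181, 0.200 and 0.594 CPM. Control 3 stood far from the other controls and next to 4-NP 3. The log2 fold change was -3.38 (SE 0.88, 95% interval -5.50 to -1.26, adjusted p = 0.0383 over 736 small RNAs other than mature miRNAs, of which 7.74% were lower). That call was lost when control 1 (-2.95), control 2 (-3.15), 4-NP 1 (-3.06), 4-NP 2 (-3.13) or 4-NP 3 (-4.20) was left out, with adjusted p-values from 0.0602 to 0.120. Since inserts of mature length were cut from the gel, such reads are short pieces assigned to the precursor and not whole precursors. In control 3, which had the fewest precursor reads of the controls, the mature family was also lowest, at 239 reads against 296 and 301. The treated samples did not follow that order: 4-NP 3 had the most precursor reads (13) with 144 mature reads, and 4-NP 1 had 4 precursor reads with 156 mature reads.

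**Figure D4:**
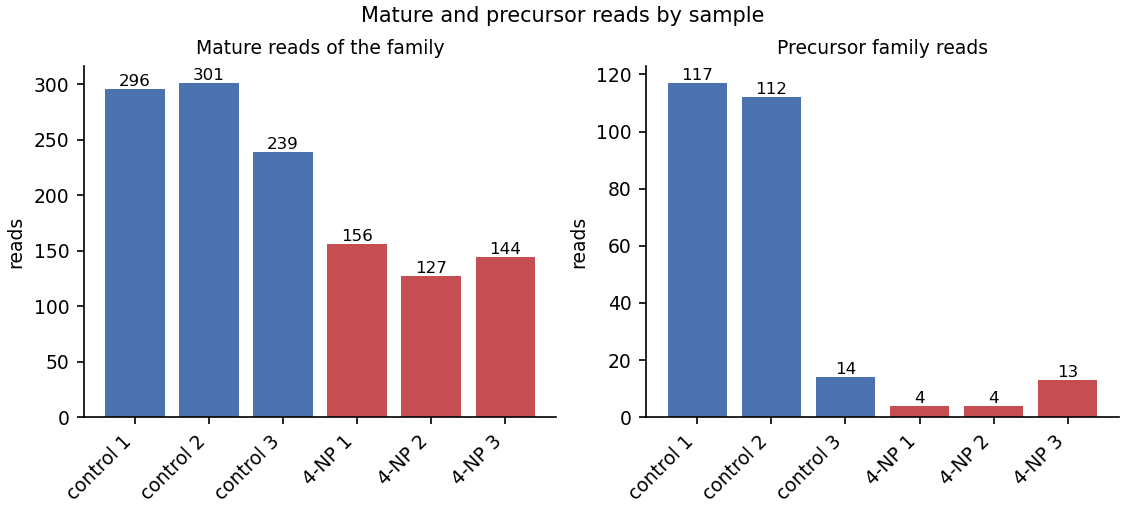
Reads per sample on the family's mature miRNAs (left) and on the precursor family row (right), as bars from 0 with the count above each bar (blue control, red 4-NP, 1 library per bar). Mature reads separate the groups (239 to 301 against 127 to 156), and precursor reads are high in controls 1 and 2 and between 4 and 14 in the other 4 samples.

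The miRNAs whose pattern over the 6 samples was most like that of the family sum were sought among 485 miRNAs averaging 20 reads or more. The measure was the root mean square difference of centred log2(CPM + 1), whose median over all candidates was 0.477. The closest was miR-199a-5p, a miRNA abundant in fibroblasts, with a difference of 0.0791 and a level of 3118, 3638 and 2964 CPM in the controls and 1995, 1728 and 1686 CPM after 4-NP (log2 fold change -0.86, adjusted p = 0.00154). Its opposite arm, miR-199a-3p, named after its value was seen, had a log2 fold change of -0.08 (adjusted p = 0.635). Next in likeness after miR-199a-5p were miR-341 (0.0941), miR-210-5p (0.0989), miR-99b-3p (0.105) and miR-135b-5p (0.115). All of these fell, with log2 fold changes of -0.62, -0.90, -0.75 and -0.81 in that order. Such falls, that of miR-199a-5p included, follow from picking miRNAs by their likeness to a sum that fell. By the same measure miR-429 (0.118) and miR-200a-3p (0.135) lay close to the sum of which they are part, and miR-200b-3p (0.276), miR-200c-3p (0.381) and miR-141-3p (0.382) lay farther away. At the low levels of these arms the added 1 CPM damps changes, so the distances do not measure pattern alone.

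Other miRNAs known from epithelial cells did not share 1 direction. Of the 16 rows of 10 such names outside the family, 10 were tested, of which 4 rose and 3 fell at an adjusted p under 0.05 (7.47 and 12.8% of all tested miRNAs), with a median log2 fold change of 0.47 against -0.02 for all tested miRNAs. The risers were miR-182 (log2 fold change 2.46), miR-96-5p (1.69), miR-194-5p (1.14) and miR-192-5p (0.96). Of these, miR-182 and miR-96 come from 1 cluster that is prominent in sensory epithelia, and miR-192 and miR-194 are abundant in gut and kidney epithelium. From the former cluster, miR-183-5p (log2 fold change 2.27, SE 1.31, adjusted p = 0.256) was not called. It averaged 2.35 ± 2.63 CPM in control and 12.0 ± 10.1 CPM in treated samples (SD), and was named after its value was seen. Those that fell were all products of the miR-203 genes, known from the epidermis: miR-203b-5p (-2.14), miR-203a-3p (-0.89) and miR-203a-5p (-1.83, outside the naming rule and named after its value was seen). Summed over the list, the level was 165 to 180 CPM in the controls and 414 to 428 CPM after 4-NP, opposite in direction to the chromosome 5 cluster.

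Among the miRNAs abundant in mesenchymal cells, in which the miR-200 family is known to be low, 22 of 23 rows were tested, 2 rose and 5 fell (7.47 and 12.8% of all tested miRNAs), and the median log2 fold change was -0.03. miR-22-3p (0.44) and miR-22-5p (0.53) rose. miR-145-3p (-1.88), miR-214-5p (-1.76), miR-199a-5p (-0.86) and miR-143-3p (-0.50) fell, as did miR-214-3p (-0.74), named after its value was seen. The opposite arms miR-145-5p (-0.33, adjusted p = 0.159) and miR-199a-3p (-0.08, adjusted p = 0.635), also named after their values were seen, were not called. In the controls these averaged 2318 and 11801 CPM, against 52.9 CPM for miR-145-3p and 3240 CPM for miR-199a-5p. miR-214-5p averaged 1.77 CPM there, against 678 CPM for miR-214-3p. The epithelial and mesenchymal lists thus both held members that moved with the chromosome 5 cluster and members that moved against it.

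**Figure D5:**
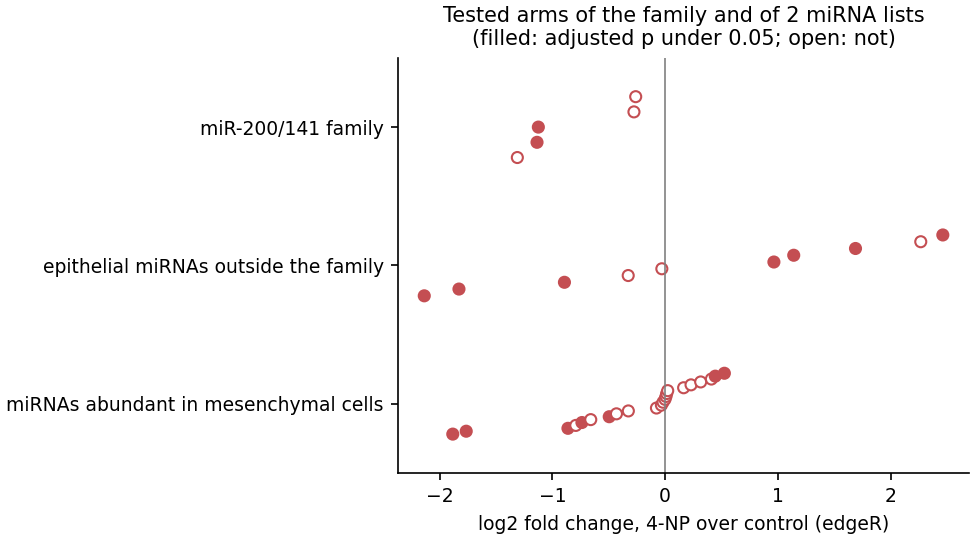
Log2 fold change of 4-NP over control from edgeR for the tested arms of the family (5), of epithelial miRNAs outside it (10) and of miRNAs abundant in mesenchymal cells (22). Each point is 1 mature miRNA, filled where its adjusted p is under 0.05, and the vertical offset within a row only separates points. The family lies at or left of -0.26, and both lists extend to both sides of 0.

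Markers of other cells that a testis culture could hold were read beside these results, where again 7.47% of all tested miRNAs were higher and 12.8% lower. The gonadal somatic miRNAs miR-202 and miR-140 were present at 1382 to 1897 CPM in the controls and 1213 to 1404 CPM after 4-NP, with 0 of 4 rows called. The endothelial miR-126a had 6325 to 7615 CPM in the controls and 3234 to 3805 CPM after 4-NP, and both of its 2 rows fell, as did 2 of 4 rows of the smooth muscle or myoid miR-143 and miR-145 (120596 to 136273 against 88389 to 96697 CPM summed). Germ cell miRNAs of the miR-34 and miR-449 group had 4 of 5 tested rows higher (150 to 167 against 162 to 197 CPM summed). All 4 were arms of miR-34b and miR-34c, and the most abundant row of the list, miR-449a-5p, averaged 124 ± 8.54 CPM in control and 106 ± 13.5 CPM in treated samples (SD, n = 3 per group; log2 fold change -0.25, adjusted p = 0.247). The erythroid list had 1 of 2 higher (11.0 to 40.7 against 59.3 to 631 CPM summed). The myeloid list (8.05 to 10.6 against 8.36 to 14.1 CPM, 3 tested rows), the striated muscle list (14.5 to 20.0 against 13.4 to 15.4 CPM, 3 tested rows) and the liver miR-122 (0.0427 to 0.538 against 0.271 to 21.7 CPM, 1 tested row) had 0 called. No row of any of these lists was at 0 in all samples. The part of any of these cells in the fall of the chromosome 5 cluster was not tested.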

How the data were processed

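Small RNA of 18 to 30 nt was sequenced in 3 control and 3 4-NP samples of rat primary sertoli cells. The authors ligated adapters with molecular identifiers and deposited 1 table of read counts per small RNA and sample, without normalization. The deposited identifier column is no number of molecules (1 for each family member with reads) and was not used. The submitters' processing notes name HISAT2 and DESeq2 without a role, and the genome build, the miRNA database and the assignment of reads are not given in the sources used here. The rows that sum exon, intron, intergenic and repeat reads (3.52 to 5.91% of counted reads per sample) name no gene and were left out. Treated columns were matched to treated samples by number.

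Library size was the sum of mature miRNA counts (81.9 to 85.2% of counted reads). Counts were tested in R 4.3.3 with edgeR 4.0.16 (TMM, filterByExpr, two-sided quasi-likelihood F test, no replicate block, common dispersion 0.118), with Benjamini-Hochberg adjustment over all tested miRNAs. Standard errors were derived from the F statistic and the log2 estimate. Cluster, family and pair sums replaced their members' rows in fits of their own, with adjustment over the rows of each fit. CPM in the text is not TMM-scaled. Replicates of a group differed beyond counting error (chi-square per degree of freedom 154 to 942) and were kept as separate samples. Same-numbered samples did not deviate together (correlations of -0.30, -0.26 and -0.02), so the numbers were not taken as pairs. With 3 samples per group, these correlations cannot show whether same-numbered samples shared a culture or preparation. Alternatives were other scalings and filters, DESeq2 1.42.0, edgeR's classic exact test, limma 3.58.1 on log2(CPM + 1) and log2(CPM + 0.1), a replicate block, known miRNAs only and each sample left out in turn. The precursor alternatives and the summed pairs were added after seeing the data. The procedure was tested on simulated data.

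The members and lists were chosen with earlier results of these data known. Named were all members, the 5 miRNAs most like the family sum, and at most 6 called members of each of the epithelial and mesenchymal lists, by lowest p. Sequences and gene positions came from RefSeq tables of GRCr8.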

Additional observations from a re-analysis of the deposited data

How the results depend on the processing

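The fall of the family sum (log2 fold change -0.96 to -0.75, adjusted p 0.000294 to 0.0301) and of the chromosome 5 sum (-1.26 to -0.94, adjusted p 6.22e-05 to 0.0169) kept its direction and stayed called under all 17 alternatives, among them the replicate block (adjusted p = 0.0301 and 0.0169). The difference between the clusters ranged from -1.19 to -0.71, with exact permutation p-values of 0.1 to 0.25. Each of these is the smallest p-value that its setting can give, so they do not rank the settings. With each sample left out in turn, 1 to 2 members were called: 1 without control 1, control 2 or 4-NP 3. The chromosome 4 sum ranged from -0.36 to 0.055 and miR-200c-3p from -0.78 to 0.0067, both highest without 4-NP 2. The difference between the seed groups ranged from -0.19 to 0.47 and was -0.071 with all arms included. The precursor row ranged from -4.20 to -2.95 with samples left out, and with the replicate block it was -3.13 and no longer called (adjusted p = 0.169); the cause was not tested. Over all miRNAs, the block gave 26 higher and 56 lower in place of 41 and 70, and it changed no other call of a member or sum. miR-200b-3p was not tested with at least 10 counts in every sample. On average, counts were lowest for the 5p arms, followed by the 3p arms of miR-200b, miR-200c and miR-141, with 6 to 42 reads per sample. For miR-200c-3p and miR-141-3p the treated samples also lay on both sides of the controls. The parts of depth and of spread between samples were not tested.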
